A study of Mus musculus with 4 samples.

Results

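Wnt ligands, their receptors and the other named components of the Wnt pathway were examined in the cerebral cortex of mice labelled Ndrg2-/- and wild type. Members were taken by gene symbol, with earlier results of these data already known. They are the Wnt, Fzd, Dvl, Dkk, Sfrp, Tcf7, Axin, Rspo and Nkd families, Lgr4 to Lgr6, and Lef1, Lrp5, Lrp6, Ctnnb1, Apc, Gsk3a, Gsk3b, Frzb, Wif1, Znrf3, Rnf43, Porcn and Apcdd1. The array carried 85 probes for 68 such genes, among 39429 probes and 20832 genes with a symbol. Of the 68 genes, 60 were tested, as were 15759 genes in all. The 8 genes that were not tested were Wnt2b, Wnt3a, Wnt8a, Wnt8b, Dkk1, Dkk4, Rspo4 and Lgr6, because no probe of theirs was well above background on all 4 arrays in either channel.

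Each of the 4 two-colour arrays compared 1 sample labelled Ndrg2-/- (Cy5, red) with 1 labelled wild type (Cy3, green). All samples were total RNA from the cortex of 3-month-old males on a C57BL/6N background. How Ndrg2 was deleted is not in the labels, and neither is the number of mice behind a sample, so p-values measure only the spread between these samples. Dyes were never exchanged, so a probe's dye effect and its genotype difference cannot be told apart. Values are log2 ratios of the sample labelled Ndrg2-/- over its wild-type partner, with the SD over n = 4 arrays after ±. Calls are genes with an adjusted p below 0.05 in limma (Benjamini-Hochberg over all kept probes).

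The Ndrg2 probe itself was at 0.11, 0.37, 0.40 and 0.38 on arrays 1 to 4, higher in the samples labelled Ndrg2-/- (mean 0.32 ± 0.14, adjusted p = 0.0173 in limma, n = 4). The targeted gene was thus not lower in the samples labelled as lacking it. Whether the probe lies outside the deleted part was not tested, and a dye effect of this probe cannot be told apart. Every direction below rests on the labels alone. All 15 cortical neuron markers, among them Slc17a7 and Neurod6, were well above background in all samples. Of these 3 were called higher and 1 lower, with a median of 0.15 and summed normalized intensities of 94680 to 101500 in samples labelled Ndrg2-/- and 86090 to 91150 in wild type. Of 16 astrocyte markers 2 were called higher and none lower, with a median of 0.15 and sums of 273100 to 288200 in samples labelled Ndrg2-/- and 244500 to 253100 in wild type. The sums did not overlap for either list. Shares called among all tested genes were 9.12% higher and 5.84% lower. Of 24 markers of meningeal fibroblasts, the cells of the membranes that cover the cortex, 17 were called higher and none lower. Array medians of that list were 0.35, 0.37, 0.16 and 0.47. Its summed normalized intensity was 179000 to 203300 in samples labelled Ndrg2-/- and 128300 to 166300 in wild type, again without overlap. None of its 24 genes was below background in any sample. Of 20 endothelial markers 4 were called higher, with array medians of 0.05, -0.03, 0.09 and 0.21. Whether any of these cell types contributed to the values below was not tested.

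Wnt proteins are secreted, lipid-modified signals that bind Frizzled receptors together with the co-receptors Lrp5 or Lrp6. In the canonical branch, Dishevelled then disables a complex of Axin, Apc and the Gsk3 kinases that otherwise marks β-catenin for destruction, and β-catenin activates target genes with the DNA-binding partners Tcf7, Tcf7l1, Tcf7l2 and Lef1. Secreted inhibitors such as the Dkk and Sfrp proteins limit the signal, and R-spondins prolong it by drawing the ubiquitin ligases Znrf3 and Rnf43 away from Frizzled. In the brain the pathway is known for patterning the cortex and hippocampus, for building the blood-brain barrier and for synapse formation.

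Promoter windows of 250 bases before the start site are shown for the member called higher and the member called lower that each kept the call with every array left out in turn. They come from RefSeq (GRCm38.p6), in which 46 of the 68 members had a promoter. The motifs searched were CTTTGAT and CTTTGAA, which Tcf and Lef proteins are known to bind, and their shared core CTTTG, which overlaps both, each on both strands. The Lef1 window is the first of 4 start sites listed, at chr3:131110047-131110296 (plus strand). The Fzd10 window is at chr5:128600856-128601105 (plus strand). Capitals mark the core or its reverse complement.
Lef1: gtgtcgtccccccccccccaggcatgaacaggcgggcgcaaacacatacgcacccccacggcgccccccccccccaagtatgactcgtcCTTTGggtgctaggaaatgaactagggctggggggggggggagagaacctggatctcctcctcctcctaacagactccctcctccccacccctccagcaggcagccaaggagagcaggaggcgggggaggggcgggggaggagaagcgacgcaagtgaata
Fzd10: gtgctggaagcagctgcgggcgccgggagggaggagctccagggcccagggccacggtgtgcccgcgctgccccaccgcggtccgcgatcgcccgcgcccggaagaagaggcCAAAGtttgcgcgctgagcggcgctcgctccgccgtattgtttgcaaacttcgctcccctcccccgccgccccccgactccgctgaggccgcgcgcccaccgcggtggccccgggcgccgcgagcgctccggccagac
Neither window held CTTTGAT or CTTTGAA. Among all promoter windows 7.48% held one of these longer motifs, as did 7.14% of the 56 windows of members. The core alone was in 48.6% of all windows and in 42.9% of the members' windows. These matches describe letters only.

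Over the whole pathway a few genes differed, by small amounts and in both directions. Of the 60 tested members, 10 were called (16.7%), against 15.0% of all tested genes, so the share was near that of the array as a whole. The 6 members called higher were Wnt6, Wnt4, Fzd4, Fzd1, Ctnnb1 and Lef1, and the share called higher among all genes was 9.12%. The 4 members called lower were Wnt9a, Fzd10, Wif1 and Dvl2, and the share called lower among all genes was 5.84%. Without loess, with each array centred on its median, the median of all genes was 0.28 and 45 members were called, 32 higher and 13 lower, with 82.3% of all genes called. The median ratio of the 60 members was 0.04, beside 0.01 over all tested genes. The largest call in either direction was Fzd10, and no member passed 1.5 fold on all 4 arrays, a criterion that 0.0952% of all genes met. In 25 members (41.7%) all 4 arrays had 1 sign, against 42.7% of all genes.

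**Figure D1:**
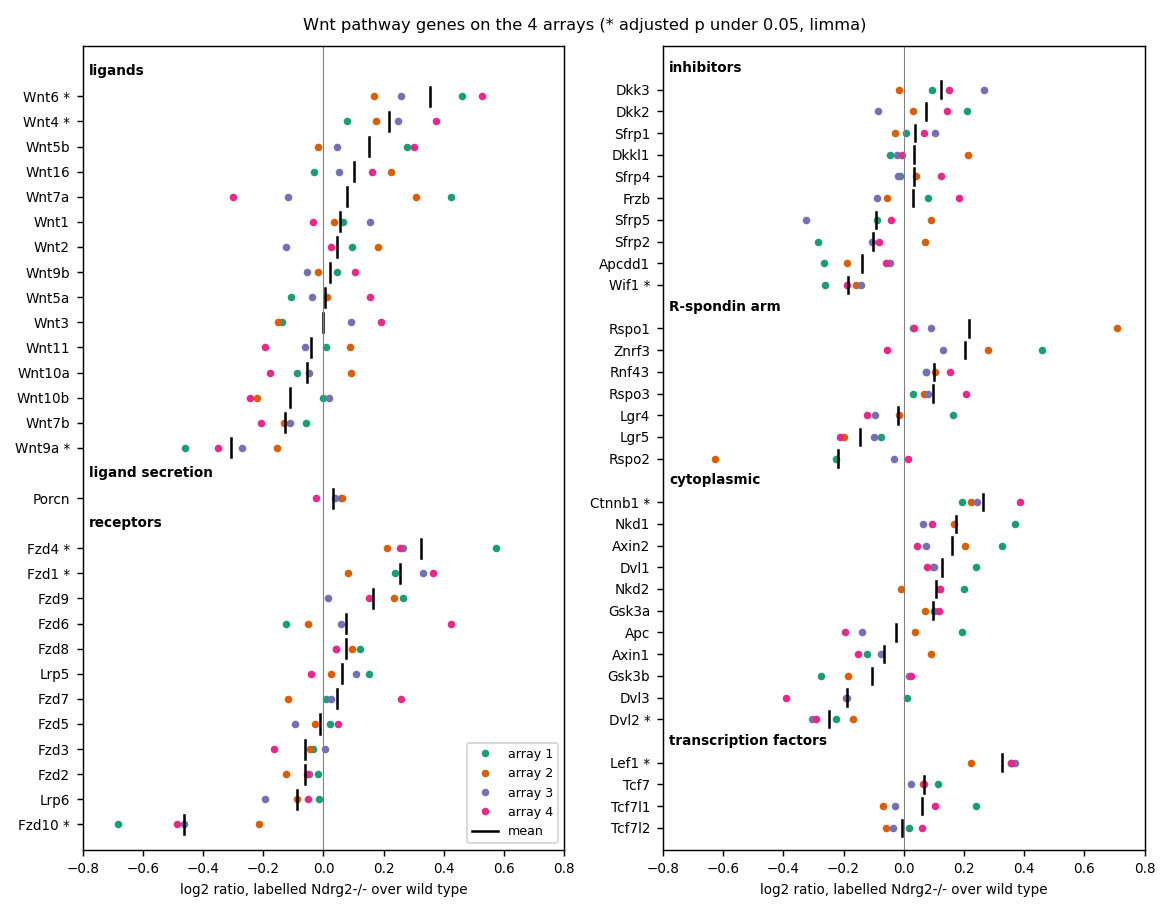
Log2 ratio (x axis, labelled Ndrg2-/- over wild type) of each of the 60 tested members, grouped by role, with 1 coloured point per array and a black bar for the mean. Asterisks mark the 10 called genes, whose 4 points lie on 1 side of 0, while most other members have points close to 0 or on both sides. Median centring without loess puts Dvl2, Wnt9a and Rspo2 above 0 and Tcf7 below 0.

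The count of calls fell with any 1 array left out, as did the share of all genes called, and such a fit rests on fewer arrays. Leaving out replicate 3 left 3 called members (5.1% of all genes called), and leaving out replicate 1 left 5 (4.1% of all genes). There were 6 with replicate 2 removed (2.87% of all genes) and 7 with replicate 4 removed (9.8%). Only Lef1 and Fzd10 kept the call in all 4 of these fits. Because the tissue was measured in bulk, fewer cells of a type and less RNA per cell cannot be told apart for any of these genes.

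Ligands moved both ways. Of 15 tested Wnt genes, Wnt6 and Wnt4 rose, Wnt9a fell and 12 did not pass, with a group median of 0.02. Wnt6, a signal that keeps somites epithelial in chick embryos, had normalized log2 intensities of 7.65, 7.56, 8.02 and 8.23 in the samples labelled Ndrg2-/- and 7.19, 7.39, 7.77 and 7.71 in their wild-type partners. Each Ndrg2-/- sample was above its own partner, although the 2 groups overlapped. The ratios were 0.46, 0.17, 0.26 and 0.53 (mean 0.35 ± 0.17, adjusted p = 0.0180 in limma, n = 4). The call was lost without replicate 1 (0.32, adjusted p = 0.0646 in limma) and with the processed signals that the image software wrote (0.46, adjusted p = 0.0708). Array 4 was highest for Wnt6 and for the meningeal list, while arrays 2 and 3 stood in opposite order in the 2. A link between them was not tested.

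Wnt4, needed for kidney tubule formation, had normalized log2 intensities of 11.38, 11.54, 11.52 and 11.70 in the samples labelled Ndrg2-/- and 11.31, 11.36, 11.27 and 11.32 in wild type. The groups did not overlap, and the lowest sample labelled Ndrg2-/-, on array 1, was just above the highest wild-type sample. The ratios were 0.08, 0.17, 0.25 and 0.37 (mean 0.22 ± 0.13, adjusted p = 0.0397 in limma, n = 4). A second Wnt4 probe was at 0.13 and was not called (adjusted p = 0.177 in limma). The call was lost with any 1 replicate left out (0.17 to 0.27, adjusted p 0.0537 to 0.124 in limma) and with the median of both probes (0.17, adjusted p = 0.0541). It was also lost with the processed signals (0.21, adjusted p = 0.0684) and with normexp offset 10 (0.21, adjusted p = 0.0724).

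Wnt9a, which restrains cartilage formation at developing joints, had normalized log2 intensities of 10.60, 10.64, 10.58 and 10.50 in the samples labelled Ndrg2-/- and 11.06, 10.79, 10.85 and 10.85 in wild type. The groups did not overlap. The ratios were -0.46, -0.15, -0.27 and -0.35 (mean -0.31 ± 0.13, adjusted p = 0.0170 in limma, n = 4), and the mean was 0.04 under median centring, or -0.24 relative to the shifted median of all genes. The call was lost without replicate 1 (-0.26, adjusted p = 0.0557 in limma) and without replicate 3 (-0.32, adjusted p = 0.0526).

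The remaining 12 ligands had means from -0.13 to 0.15. The highest was Wnt5b, at 0.28, -0.02, 0.05 and 0.30 (mean 0.15 ± 0.16, adjusted p = 0.147 in limma, n = 4), where arrays 1 and 4 alone were clearly above 0. Wnt7b, which with Wnt7a directs the ingrowth of brain vessels, was at -0.13 ± 0.06 (adjusted p = 0.0829 in limma, n = 4). Wnt7a varied most among the ligands, at 0.42 and 0.31 on arrays 1 and 2 and at -0.12 and -0.30 on arrays 3 and 4. Wnt5a, the main ligand of the β-catenin-independent branch, was at 0.01 ± 0.11. It lies on chromosome 14, as Ndrg2 does, 136 tested genes away. Porcn, the enzyme that attaches the lipid to Wnt proteins, was at 0.03 ± 0.04 (adjusted p = 0.600 in limma, n = 4).

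Among 12 tested receptors and co-receptors, Fzd4 and Fzd1 rose, Fzd10 fell and 9 did not pass, with a median of 0.05. Fzd10 had normalized log2 intensities of 7.95, 8.00, 7.93 and 7.81 in the samples labelled Ndrg2-/- and 8.63, 8.22, 8.40 and 8.29 in wild type. All samples labelled Ndrg2-/- were below all wild-type samples. The ratios were -0.68, -0.22, -0.46 and -0.49 (mean -0.46 ± 0.19, adjusted p = 0.0109 in limma, n = 4), a level 0.726 times that of wild type. With the processed signals the mean was -0.69 (adjusted p = 0.0320 in limma). The call held with each replicate left out in turn (-0.54 to -0.39, adjusted p 0.0161 to 0.0409 in limma).

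Fzd4, which also serves as the receptor for Norrin in retinal and brain vessels, had normalized log2 intensities of 9.06, 9.07, 9.12 and 9.23 in the samples labelled Ndrg2-/- and 8.49, 8.86, 8.85 and 8.98 in wild type. The groups did not overlap. The ratios were 0.57, 0.21, 0.26 and 0.25 (mean 0.33 ± 0.17, adjusted p = 0.0216 in limma, n = 4), with array 1 apart because its wild-type sample was the lowest. The call was lost without replicate 2 (0.36, adjusted p = 0.0661 in limma), without replicate 3 (0.35, adjusted p = 0.0602) and with the processed signals (0.36, adjusted p = 0.0616). Fzd4 was highest on array 1 and the endothelial list on array 4, and a link between them was not tested.

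Fzd1 had normalized log2 intensities of 9.54, 9.56, 9.69 and 9.74 in the samples labelled Ndrg2-/- and 9.30, 9.48, 9.36 and 9.38 in wild type. The groups did not overlap. The ratios were 0.24, 0.08, 0.33 and 0.37 (mean 0.25 ± 0.13, adjusted p = 0.0269 in limma, n = 4). Of the fits with 1 array left out, only the one lacking replicate 2 kept the call. The adjusted p in limma was 0.0770 lacking replicate 1, 0.0988 lacking replicate 3 and 0.0680 lacking replicate 4, at ratios of 0.26, 0.23 and 0.22. With normexp offset 10 it was not called. The 9 other receptors had means from -0.09 to 0.17. The highest was Fzd9, at 0.17 ± 0.11 (adjusted p = 0.0704 in limma, n = 4), whose groups did not overlap either. Fzd6 was the most variable receptor, at -0.12, -0.05, 0.06 and 0.42. Fzd2 was at -0.06 ± 0.05 with its second probe at 0.07, and Fzd7 at 0.04 ± 0.16 with its second probe at 0.05. The co-receptor genes Lrp5 (0.06 ± 0.09) and Lrp6 (-0.09 ± 0.08) were not called, and neither was Fzd3 (-0.06 ± 0.07), which lies on chromosome 14 at 137 tested genes from Ndrg2.

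**Figure D2:**
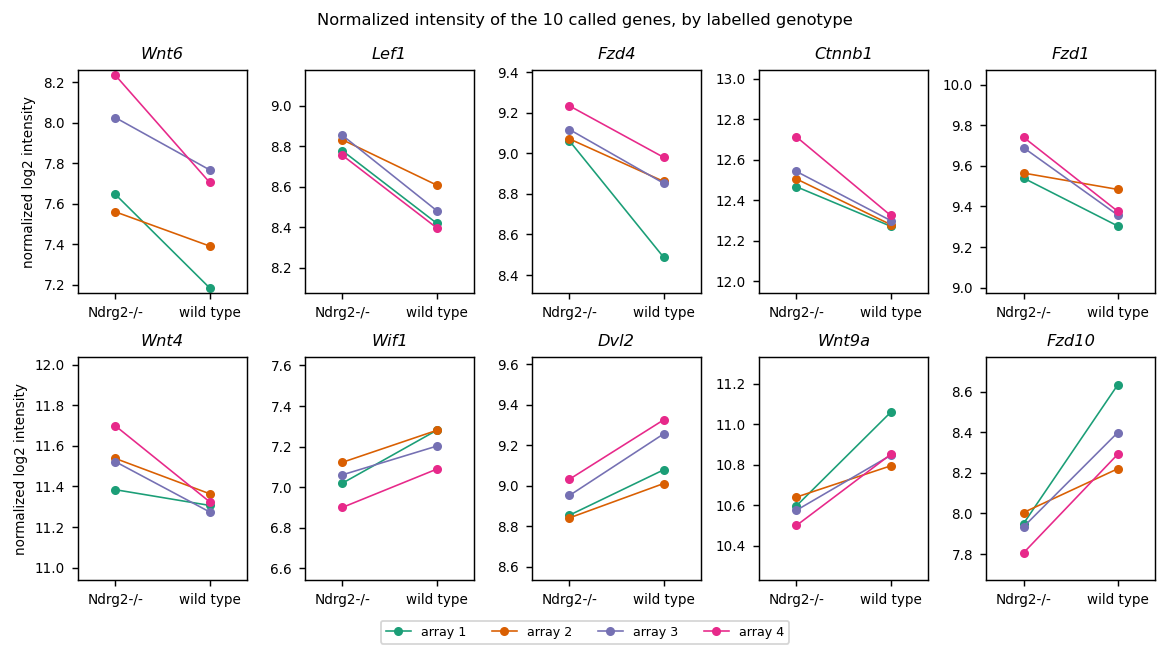
Normalized log2 intensity (y axis, spanning the same range in each panel) of the 10 called genes in the samples labelled Ndrg2-/- (left) and wild type (right); lines join the 2 samples of an array. All 4 lines slope the same way in each panel, and the groups overlap for Wnt6, Wif1 and Dvl2. The directions of Dvl2 and Wnt9a are those after loess and turn under median centring.

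The groups did not overlap for 7 of the 10 called members and for 8 of all 60 (13.3%), against 15.3% of all tested genes. Intensities of different probes are not comparable with each other, so these levels carry no order among genes.

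Of 10 tested secreted and membrane inhibitors, Wif1 fell and 9 did not pass, at -0.14 to 0.12, with a median of 0.03. Wif1, which binds Wnt proteins outside the cell, had normalized log2 intensities of 7.02, 7.12, 7.06 and 6.90 in the samples labelled Ndrg2-/- and 7.28, 7.28, 7.20 and 7.09 in wild type. Each was below its own partner, and the groups overlapped because both samples of array 4 were low. The ratios were -0.26, -0.16, -0.14 and -0.19 (mean -0.19 ± 0.05, adjusted p = 0.0267 in limma, n = 4). Wif1 lost its call with any 1 replicate left out (-0.20 to -0.16, adjusted p 0.0578 to 0.0920 in limma). Its mean was -0.32 with the processed signals and -0.28 with normexp offset 10, and it was called in both.

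The membrane inhibitor gene Apcdd1 was at -0.26, -0.19, -0.04 and -0.06 (mean -0.14 ± 0.11, adjusted p = 0.104 in limma, n = 4). Dkk3, an abundant cortical member of the Dickkopf family, was at 0.12 ± 0.12 (adjusted p = 0.154), Dkk2 at 0.08 ± 0.13 and the Frizzled-related gene Sfrp1 at 0.04 ± 0.06. Frzb, a further secreted Frizzled-related protein, was at 0.03 ± 0.13. None of the tested Dkk or Sfrp genes was called.

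In the R-spondin arm none of 7 tested genes was called in limma. Lgr5, Znrf3 and Rnf43 had an unadjusted p under 0.05 (0.00951, 0.0336 and 0.0322 in limma). They are among 24 of all 60 tested members that did, and the share of all tested genes that did was not counted. The R-spondin gene Rspo1 was at 0.03, 0.71, 0.09 and 0.04 (mean 0.22 ± 0.33, adjusted p = 0.225 in limma, n = 4), and without replicate 2 its mean was 0.05. Rspo2 was at -0.23, -0.63, -0.03 and 0.01 (mean -0.22 ± 0.29, adjusted p = 0.181), and without replicate 2 its mean was -0.08. Both were thus farthest from 0 on array 2, in opposite directions. The receptor gene Lgr5 was at -0.15 ± 0.07 (adjusted p = 0.0607) and the ligase gene Znrf3 at 0.20 ± 0.22 (adjusted p = 0.125).

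In the cytoplasm, the gene of β-catenin rose and a Dishevelled gene fell, among 11 tested genes with a median of 0.10. Ctnnb1 had normalized log2 intensities of 12.47, 12.51, 12.54 and 12.71 in the samples labelled Ndrg2-/- and 12.27, 12.28, 12.30 and 12.33 in wild type. The groups did not overlap, and the wild-type samples lay close together. The ratios were 0.19, 0.22, 0.24 and 0.39 (mean 0.26 ± 0.09, adjusted p = 0.0158 in limma, n = 4). Ctnnb1 lost its call without replicate 2 (0.27, adjusted p = 0.0658 in limma) and without replicate 3 (0.27, adjusted p = 0.0551).

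Dvl2, one of the 3 Dishevelled genes, had normalized log2 intensities of 8.86, 8.84, 8.95 and 9.03 in the samples labelled Ndrg2-/- and 9.08, 9.01, 9.26 and 9.32 in wild type. Each was below its own partner, with overlap between the groups. The ratios were -0.22, -0.17, -0.30 and -0.29 (mean -0.25 ± 0.06, adjusted p = 0.0144 in limma, n = 4), while under median centring the mean was 0.0034, or -0.27 relative to the shifted median of all genes. Without replicate 3 the call was lost (-0.23, adjusted p = 0.0619 in limma). The other Dishevelled genes were at 0.13 ± 0.08 for Dvl1 (adjusted p = 0.0914) and at -0.19 ± 0.16 for Dvl3 (adjusted p = 0.0885).

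The scaffold and kinase genes of the destruction complex were not called. Axin1 was at -0.06 ± 0.11, Apc at -0.03 ± 0.18, Gsk3a at 0.10 ± 0.02 (adjusted p = 0.121 in limma, n = 4) and Gsk3b at -0.10 ± 0.15. The 2 other Gsk3b probes differed, at 0.01 and at -0.14 (adjusted p = 0.934 and 0.0555 in limma).

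Lef1 was the only transcription factor gene of 4 that was called. Its normalized log2 intensities were 8.78, 8.83, 8.85 and 8.76 in the samples labelled Ndrg2-/- and 8.42, 8.61, 8.48 and 8.40 in wild type. All samples labelled Ndrg2-/- were above all wild-type samples. The ratios were 0.36, 0.22, 0.37 and 0.36 (mean 0.33 ± 0.07, adjusted p = 0.00612 in limma, n = 4), or 1.25 fold (95% interval of the log2 ratio 0.23 to 0.43). The call held with each replicate left out in turn (0.31 to 0.36, adjusted p 0.0229 to 0.0340 in limma). Tcf7 was at 0.11, 0.06, 0.02 and 0.07 (mean 0.07 ± 0.04, adjusted p = 0.269) after loess. It was called in opposite directions by 2 alternatives, at 0.33 with the processed signals (adjusted p = 0.0439 in limma) and at -0.15 under median centring (adjusted p = 0.0181). Tcf7l1 was at 0.06 ± 0.14. Tcf7l2, which marks the thalamus in adult brain, was at -0.0045 ± 0.05, with its other tested probe at 0.03.

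Several members are also known as transcriptional targets of the pathway. Of 9 listed, 8 were tested (Axin2, Nkd1, Lef1, Tcf7, Lgr5, Rnf43, Znrf3 and Apcdd1), and Lef1 alone was called, with a group median of 0.13 and array medians of 0.22, 0.14, 0.07 and 0.06. The feedback inhibitor gene Axin2 was at 0.33, 0.20, 0.07 and 0.04 (mean 0.16 ± 0.13, adjusted p = 0.0922 in limma, n = 4), and its second probe was at -0.02. Nkd1, an antagonist of Dishevelled, was at 0.37, 0.17, 0.06 and 0.09 (mean 0.17 ± 0.14, adjusted p = 0.0847), and its second probe was at 0.04. Both genes were highest on array 1, and the second probe was nearer 0 in each. Of 10 members with more than 1 tested probe, 7 had further probes with a median of the same sign as the probe used.

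**Figure D3:**
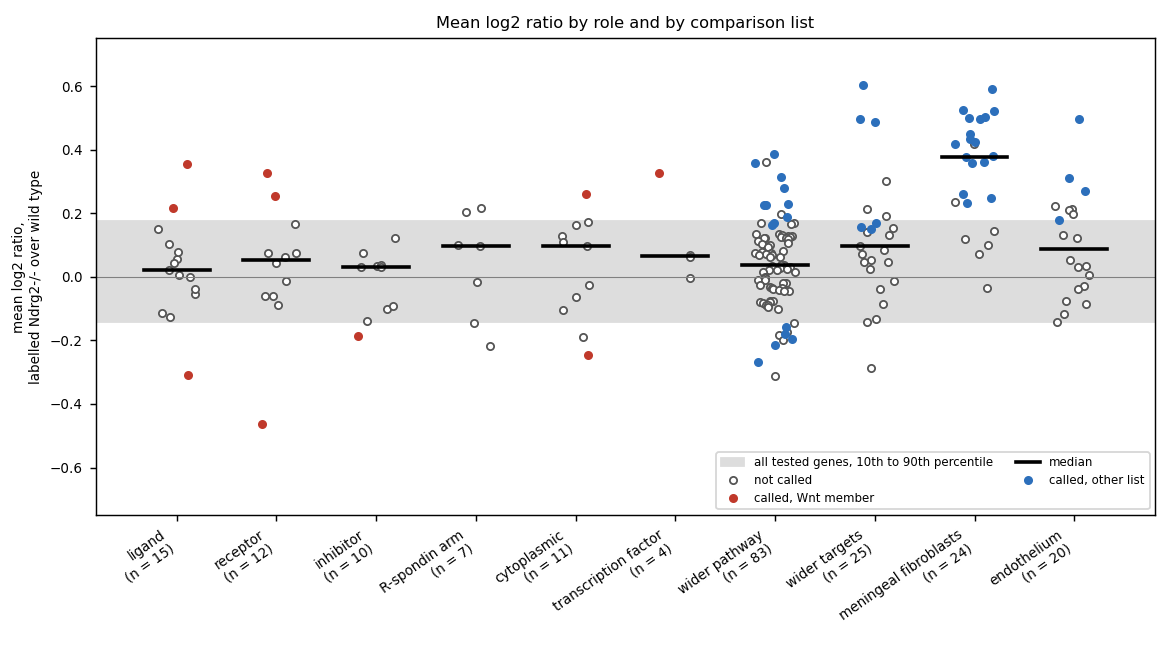
Mean log2 ratio (y axis, labelled Ndrg2-/- over wild type) of each gene, by role of the Wnt members and for 4 comparison lists, with black bars for medians, filled points for called genes and a grey band for the middle of all tested genes. Role medians lie between 0.02 and 0.10, inside the band, whereas the meningeal fibroblast list has its median at 0.38. The band is the spread of single genes, and medians of several genes vary less, so a median inside it is no test of a role.

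Genes of the pathway outside the members gave a similar share. Of 107 tested, 20 were called (18.7%), 15 higher and 5 lower, beside 15.0% of all genes. The processed signals gave 8 higher and 5 lower, and median centring 85 higher and 7 lower. The 6 largest called higher were Bmp4 (0.60 ± 0.11, adjusted p = 0.000962 in limma, n = 4), Slc2a1 (0.50 ± 0.34, adjusted p = 0.0324), Ephb3 (0.49 ± 0.07, adjusted p = 0.00109), Csnk1d (0.39 ± 0.12, adjusted p = 0.00728), Daam2 (0.36 ± 0.12, adjusted p = 0.00935) and Tnks2 (0.31 ± 0.05, adjusted p = 0.00564). Bmp4 is a growth factor, Slc2a1 the glucose transporter of the blood-brain barrier and Ephb3 an ephrin receptor, all known targets in some tissues. Csnk1d is a kinase of the casein kinase 1 family, Daam2 links Dishevelled to actin and Tnks2 directs the breakdown of Axin. All of these but Slc2a1 kept the call with each replicate left out in turn, and Slc2a1 kept it in 1 of those 4 fits, without replicate 2. With the median of a gene's probes, Csnk1d was at 0.18 and Tnks2 at 0.16, with adjusted p of 0.0262 and 0.0348 in limma.

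The 5 wider genes called lower were Kremen2, whose product binds Dkk proteins (-0.27 ± 0.14, adjusted p = 0.0253 in limma, n = 4), the co-repressor genes Tle1 (-0.21 ± 0.08) and Tle2 (-0.16 ± 0.02), Amer3 (-0.19 ± 0.08) and the chromatin remodeller gene Chd8 (-0.18 ± 0.03), of which Kremen2 alone stayed below 0 under median centring. Kremen2 was at -0.59 with the processed signals and at -0.41 with normexp offset 10. With the median of a gene's probes, Tle1 (-0.12, adjusted p = 0.122 in limma) and Tle2 (-0.080, adjusted p = 0.182) lost their calls. Among the fits with 1 replicate left out, Chd8 kept its call only without replicate 4, and the 4 others lost theirs with any 1 replicate left out. Of the 20 called genes, 4 lie on chromosome 14 with Ndrg2, where the wider genes Mapk8, Amer2 and Gpc6 were tested and not called. The share of all genes called on that chromosome was not counted, so the 4 are given as positions only. Counted in tested genes from Ndrg2, Chd8 is 7 away on one side, Nfatc4 69 and Tnfrsf19 109 on the same side, and Bmp4 43 on the other.

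**Figure D4:**
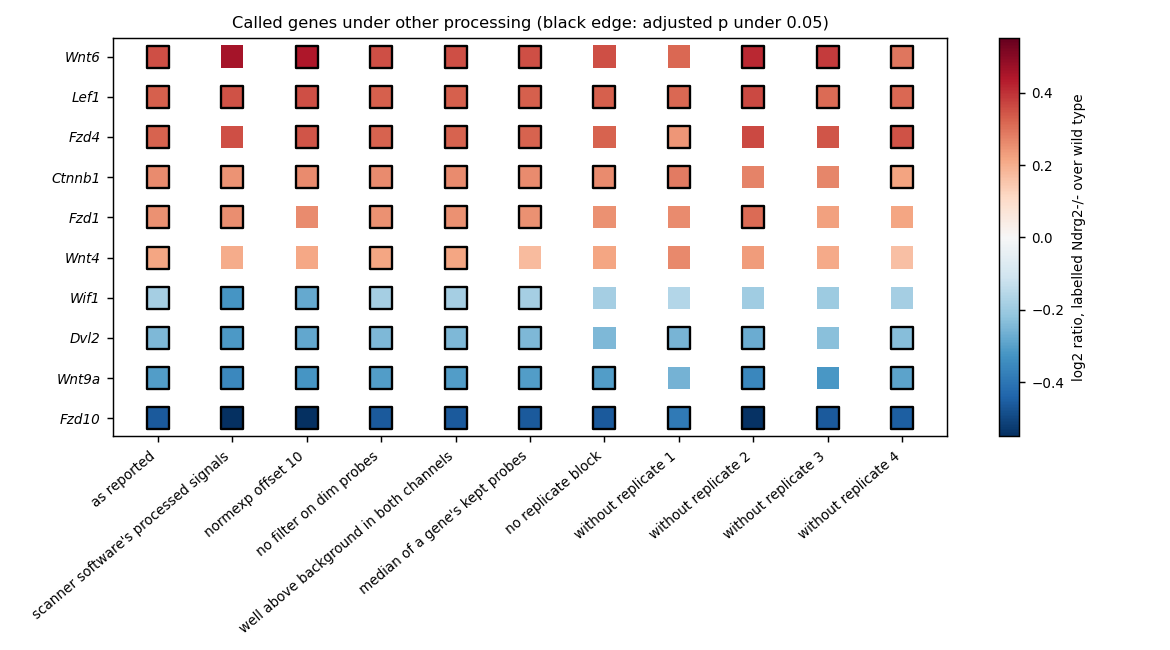
Log2 ratio (colour, labelled Ndrg2-/- over wild type) of the 10 called members (rows) under other processing and with each replicate left out (columns); a black edge marks an adjusted p under 0.05. Lef1 and Fzd10 keep the edge in every column shown, and Wnt4 and Wif1 lose it with any 1 replicate left out. Median centring, under which Dvl2 and Wnt9a turn to just above 0, is not drawn.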

How the data were processed

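Cortical RNA (200 ng per sample, per the labels' protocols) was measured on 4 two-colour Agilent arrays. The authors extracted images with Agilent Feature Extraction (version 10.7.3.1 in the submitters' processing notes, 11.0.1.1 in the headers). Each spot has, per the file headers, a raw median intensity and local background, a processed intensity after background subtraction and dye normalization, and the log10 red-to-green ratio. The authors also deposited log2 ratios, which match those of the processed signals; their column medians are 0.04, 0.03, -0.04 and -0.04.

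Ratios were recomputed from the raw intensity with limma 3.58.1 in R 4.3.3, by normexp (offset 50) and loess, with 1377 control spots at weight 0 and 802 outlier spots left out over the 4 arrays (43020 non-control spots on each). Replicate spots were averaged. Of 39429 probes, 27664 passed the filter (signal well above background on all 4 arrays in the red channel, in the green channel or in both). The share of probes above background was 70.6% to 73.4% by channel and array; precision is limited by having 4 arrays.

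Symbols came from matching transcript accessions to a RefSeq gene table (GRCm38.p6); the array annotation is of mm9, so positions served only for gene order. The brightest kept probe stood for a gene. An intercept-only model was fitted (limma lmFit, eBayes; 3 residual and 4.47 prior degrees of freedom), adjusted over all kept probes. Per-sample intensities come from the same data after loess and Aquantile scaling. Named are all called members, the 2 largest of each role with under 2 calls, and up to 6 called genes per direction of the wider lists; other members are given by range or as examples of their role. Members and lists were chosen with earlier results of these data known, so no list is independent support. Both samples of an array share it, so each ratio is already paired. Alternatives were other signals, centring, offset and filters, the median of a gene's probes, the deposited table, unpaired channels and each replicate left out. The pipeline was tested on simulated arrays.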

Additional observations from a re-analysis of the deposited data

Results flagged for a closer look

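Among the 60 members, 5 had 1 array far from the other 3 by Dixon's test at 95%. For normally distributed ratios, chance flags about 1 gene in 20. The share of all tested genes flagged was not counted, so the 5 are given as single cases only. Array 2 stood apart for Rspo1 (0.71, with the others at 0.03 to 0.09), for Lef1 (0.22, others 0.36 to 0.37) and for Dkkl1 (0.21, others -0.05 to -0.01). Array 1 stood apart for Fzd4 (0.57, others 0.21 to 0.26) and for Dvl1 (0.24, others 0.08 to 0.10). No member had array 3 or array 4 apart in this way. The reasons were not tested.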

How the results depend on the processing

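The 10 called members became 8 with the processed signals and with the authors' deposited table (8.43% of all genes called in each). They were also 8 with offset 10 (9.76%). Without the filter 10 of 68 tested members were called (10.1% of all genes). With both channels required 10 were called, and 9 with the median of a gene's probes. With no replicate block, the 2 channels of an array taken as unpaired samples, 4 were called (4.29% of all genes), and median centring called 45. Leaving out 1 replicate gave 3 to 7. The 20 wider genes became 13 with the processed signals and with the deposited table, 92 under median centring, 6 with no replicate block and 6 to 14 with 1 replicate left out. The members' median of 0.04 was 0.021 with the processed signals and with the deposited table, and 0.18 under median centring, below the 0.28 of all genes there; it was 0.03 to 0.05 with 1 replicate left out. No member passed 1.5 fold on all arrays used under any setting run; by the mean alone, Fzd10 passed it with the processed signals and with the deposited table (-0.69 in each), and 4 members (Ctnnb1, Dkk3, Gsk3a and Wnt4) did under median centring. Relative to the shifted median there, Wnt6 was at 0.11 and Wif1 at -0.61. Among 26 named genes only median centring turned a direction: Dvl2 (0.0034), Wnt9a (0.043), Rspo2 (0.095), Tcf7 (-0.15), Amer3 (0.084), Chd8 (0.24), Tle1 (0.17) and Tle2 (0.23), all below the shifted median. That setting leaves the intensity-dependent dye trend in place. With no replicate block 12 of the 26 lost the call, Wnt6, Wnt4, Fzd4, Fzd1, Wif1 and Dvl2 among them. Probes near background give only loose limits, and 8 members could not be tested.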

Other observations

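Some members split by array without a call. Wnt7a was higher in the samples labelled Ndrg2-/- on arrays 1 and 2 (0.42 and 0.31) and lower on arrays 3 and 4 (-0.12 and -0.30), and Apc ran the same way (0.19, 0.04, -0.14 and -0.19). Wnt3 ran the other way, at -0.14, -0.15, 0.09 and 0.19. The Gsk3b probe used was at -0.27 and -0.18 on arrays 1 and 2 and at 0.02 on both others. The 2 other Gsk3b probes did not split this way. One was at 0.08, 0.06, 0.05 and -0.16, and the other at -0.15, -0.11, -0.10 and -0.19. The genes Wnt7a, Apc, Wnt3 and Gsk3b were chosen after their values were seen. Such a split is not particular to these genes. Taking all genes together, array 1 tracked array 2 most closely (correlation r = 0.713), followed by array 3 with array 4 (r = 0.589). Every other pairing reached only r = 0.407 to 0.481. Among the members alone, array 3 tracked array 4 (r = 0.75), but array 1 tracked array 3 (r = 0.623) more closely than array 2 (r = 0.554). The reason was not tested.

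Lgr6, left out of the tests, was well above background in 3 samples of each labelled genotype, with ratios of 0.12, 0.16, 0.15 and -0.05. Another Tcf7l2 probe was well above background in 3 samples labelled Ndrg2-/- and in 0 wild-type samples, with ratios of 0.02, 0.02, 0.10 and -0.14, so the detection calls differed without a matching ratio.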
